A study of Mus musculus with 24 samples.

Results

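Brain microvessels isolated 24 h after transient middle cerebral artery occlusion (tMCAO) were compared between the ipsilateral hemisphere, whose right middle cerebral artery had been occluded for 60 min, and the contralateral hemisphere of the operated animals. The comparison rested on 6 of the 24 libraries of the series, 3 ipsilateral and 3 contralateral, chosen by surgery, time and hemisphere as the labels give them. All mice were male C57BL/6J of 10 to 12 weeks. The other groups used here were microvessels of both hemispheres 24 h after sham surgery, in which the filament was withdrawn as soon as it had reached the branching point, and of both hemispheres 7 days after tMCAO, again with 3 libraries in each group. No group carried a transgene. Each library was made from the vessels of 3 pooled hemispheres, so that 9 animals stood behind a group, and the cerebellum, brain stem, olfactory lobes and meninges had been removed. Because whole hemispheres were used, the ipsilateral libraries held vessels of infarcted, neighbouring and spared tissue together. Contralateral vessels came from mice that had also been anaesthetised, operated on and exposed to the stroke, so that they served as an internal control and not as a naive one.

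A microvessel is a tube of endothelial cells wrapped in pericytes and basement membrane and covered by the endfeet of astrocytes. In the brain the endothelium is sealed by tight junctions and carries transporters that move glucose, amino acids, thyroid hormone and iron into the tissue and drugs out of it, which together form the blood-brain barrier. Wnt ligands and norrin, acting through beta-catenin, keep this barrier program active. After ischemia and reperfusion, vessel cells display selectins and adhesion molecules, release cytokines and chemokines, and allow neutrophils and monocytes to attach and enter.

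The 6 libraries held totals of 16257620 to 17908309 normalized counts. A depth factor recovered from the pattern of low values gave estimates of 13692148 to 17005617 reads, with the lowest for ipsilateral library 1. In simulated libraries the recovered factor erred by up to 0.4986, so that these depths and their order are uncertain. In all 24 libraries the endothelial gene Cldn5 and the pericyte gene Pdgfrb were abundant, with Cldn5 at 42176 to 48060 normalized counts in the ipsilateral and 43453 to 47961 in the contralateral libraries of this comparison. Neuronal, glial and blood cell transcripts were present too. A normalized count is the number of reads of a gene divided by a factor for the depth of its library. Because a bulk library sums over cells, fewer cells of a type and less RNA per cell cannot be told apart. Contralateral library 2 and ipsilateral library 3 lay nearest to the opposite hemisphere. Of the genes that passed as higher, 602 had their highest contralateral value in contralateral library 2, and 858 had their lowest ipsilateral value in ipsilateral library 3.

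Ischemia was accompanied by a broad difference between the hemispheres. With an adjusted p under 0.05 (limma, Benjamini-Hochberg) and a difference beyond 1.5-fold, 1360 genes were higher in ipsilateral vessels and 821 were lower, out of 15982 tested, which is 8.51% and 5.14%. The counts of each gene list below are to be read against these shares. Log2 differences exceeded 3 for 70 of the higher genes, and 1 of the lower genes fell by more than 3. The median of the higher genes was 0.98 and that of the lower genes -0.88, against -0.02 over all tested genes. The libraries of the groups did not overlap for 2063 of the 2181 genes that passed, against 40.8% of all tested genes. Same-numbered ipsilateral and contralateral libraries differed in 1 direction in all 3 pairs for 2172 of them, against 63.4% of all tested genes. Both counts follow in large part from the selection, since the genes passed on these same values. In pairs 1, 2 and 3, the median log2 difference of the higher genes was 1.04, 0.99 and 0.90 and that of the lower genes was -0.95, -0.96 and -0.72. In sham-operated mice, the same contrast gave 0 genes by limma, with 367 at an unadjusted p under 0.05. The split between higher and lower genes depended on the scale. After the median of each library was set equal, 1097 genes were higher and 1239 were lower, or 47% higher against 62.4% as deposited, while the median over all genes moved to -0.10. Without ipsilateral library 1 the number of lower genes was 535. Of the higher genes, 46 were processed pseudogenes, which resemble their parent genes. Reads that mapped to several places were left out, but the assignment of the others to these genes is uncertain.

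**Figure D1:**
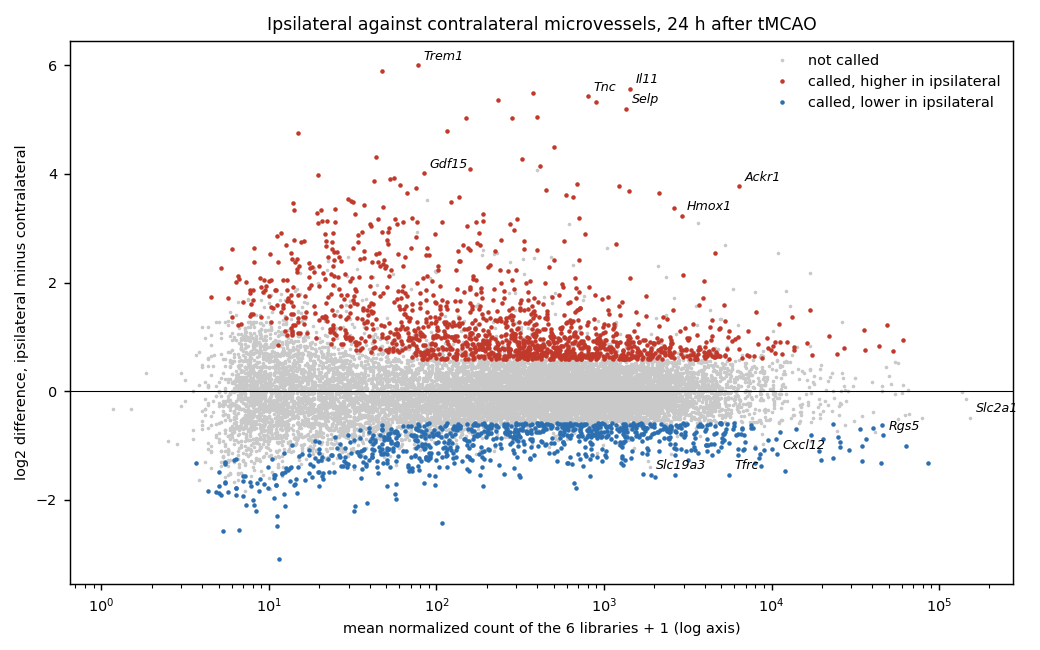
Log2 difference between ipsilateral and contralateral microvessels 24 h after tMCAO (vertical axis) against the mean normalized count of the 6 libraries plus 1 (horizontal log axis). Each point is 1 of 15982 tested genes, with the 1360 genes called higher in red, the 821 called lower in blue and the others in grey. The labelled increases reach 6.00 (Trem1), whereas the labelled decreases end at -1.54 (Slc19a3 and Tfrc).

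Cytokines of the IL-6 family were among the genes that differed most. Il11 (ENSMUSG00000004371, mm10 chromosome 7, 4772373 to 4782857, minus strand), which signals through gp130, was at 3160, 3280 and 1977 normalized counts in ipsilateral libraries 1 to 3 and at 71, 60 and 43 in the contralateral libraries. All ipsilateral libraries were thus far above all contralateral ones, and the log2 difference was 5.57 ± 0.59 (SE of the fit, 3 libraries per group), a 47.3-fold difference, with an adjusted p of 3e-06. In sham-operated mice Il11 was at 9, 30 and 7 ipsilaterally and at 7, 3 and 6 contralaterally, so that the contralateral values after tMCAO were above every sham value. Contralateral vessels after tMCAO against sham at 24 h gave 0 called genes, however, with 405 at an unadjusted p under 0.05 (limma). Il6 (ENSMUSG00000025746, chromosome 5, 30013114 to 30019981, plus strand), an acute-phase cytokine, was at 780, 1070 and 468 against 17, 34 and 16, a log2 difference of 5.05 ± 1.09 (adjusted p = 0.0023). Lif, a further ligand of gp130 receptors, was at 755, 559 and 324 against 16, 37 and 5 and rose by 5.04 ± 1.04 (adjusted p = 0.0015). Its receptor subunit Lifr fell instead, from 1624, 1832 and 2234 to 1097, 1055 and 1412, a log2 difference of -0.67 ± 0.20 (adjusted p = 0.017). The call of Lifr was lost without contralateral library 3, ipsilateral library 1 or ipsilateral library 2 (adjusted p = 0.087, 0.066 and 0.072). Of the 16 tested ligands and receptors of the family, 6 rose and 1 fell, with a median of 0.54.

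Il1b (interleukin 1 beta), the cytokine released by activated myeloid cells, was at 597, 185 and 578 in ipsilateral and at 12, 13 and 4 in contralateral libraries, a log2 difference of 5.37 ± 0.93 (adjusted p = 0.00037). Csf3, the growth factor of neutrophils, was at 1086, 619 and 439 against 17, 87 and 1 and rose by 5.50 ± 1.59 (adjusted p = 0.016). Without contralateral library 3 or ipsilateral library 1 its adjusted p was 0.099 and 0.061. Of 27 tested genes of IL-1, TNF and NF-kappaB feedback, 10 rose and none fell (median 0.83), with 4 to 14 rising when 1 library was left out. The fewest were left without contralateral library 3 or ipsilateral library 1 (4 each), ipsilateral library 2 (5) and contralateral library 1 (6). With same-numbered libraries taken as a replicate block, here called the block, 17 rose.

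**Figure D2:**
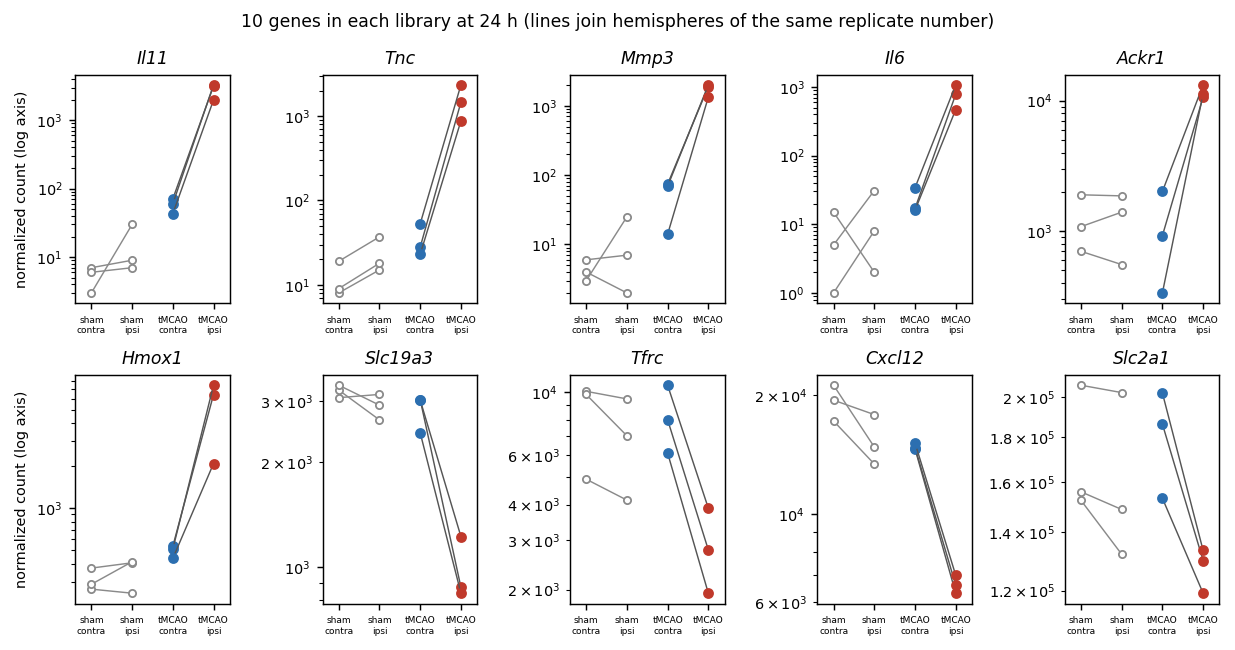
Normalized counts (log axis) of 10 genes in each library at 24 h after sham surgery (open grey circles) and tMCAO (blue contralateral, red ipsilateral), with lines between hemispheres of the same replicate number. In 6 genes (Il11, Tnc, Mmp3, Il6, Ackr1, Hmox1) every ipsilateral tMCAO library lies above the other groups, and in Slc19a3, Tfrc, Cxcl12 and Slc2a1 the ipsilateral libraries lie below the contralateral ones.

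Promoters of some genes that rose are shown as examples. They were picked by gene and by the motif to be marked, so that they do not show how common a motif was. Each is the window from 250 bases before to 50 bases after the start of the gene on its own strand, from RefSeq on GRCm38.p6 (the mm10 build), with the motif that was searched in capitals. The motifs were TGACTCA on both strands, the site known to bind AP-1 (Fos and Jun dimers), the NF-kappaB motif, and GAANNTTC, the core of heat shock elements. A motif is a match of letters and not a measured site.
Il6 promoter (chr5:30012864-30013163, plus strand, AP-1 249 bases and NF-kappaB 44 bases before the start): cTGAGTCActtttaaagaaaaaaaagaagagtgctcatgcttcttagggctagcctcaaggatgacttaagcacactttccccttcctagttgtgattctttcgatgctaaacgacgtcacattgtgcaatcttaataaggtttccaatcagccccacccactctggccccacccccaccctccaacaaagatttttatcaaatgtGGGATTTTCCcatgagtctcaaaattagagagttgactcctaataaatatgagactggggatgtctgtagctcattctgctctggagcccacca
Mmp3 promoter (chr9:7445572-7445871, plus strand, AP-1 46 bases before the start): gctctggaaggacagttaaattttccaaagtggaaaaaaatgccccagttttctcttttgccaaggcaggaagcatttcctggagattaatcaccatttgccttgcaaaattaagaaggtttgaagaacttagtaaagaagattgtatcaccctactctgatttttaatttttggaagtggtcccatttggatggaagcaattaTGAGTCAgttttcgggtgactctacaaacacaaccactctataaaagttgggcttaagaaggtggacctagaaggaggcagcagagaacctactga
Sele promoter (chr1:164047984-164048283, plus strand, AP-1 73 bases before the start): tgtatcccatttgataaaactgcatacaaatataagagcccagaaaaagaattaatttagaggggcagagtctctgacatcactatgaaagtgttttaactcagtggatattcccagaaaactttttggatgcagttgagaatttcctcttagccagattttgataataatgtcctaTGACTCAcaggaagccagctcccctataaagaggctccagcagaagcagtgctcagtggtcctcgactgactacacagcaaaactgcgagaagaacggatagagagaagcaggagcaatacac
Cxcl3 promoter (chr5:90785851-90786150, plus strand, NF-kappaB 73 bases before the start): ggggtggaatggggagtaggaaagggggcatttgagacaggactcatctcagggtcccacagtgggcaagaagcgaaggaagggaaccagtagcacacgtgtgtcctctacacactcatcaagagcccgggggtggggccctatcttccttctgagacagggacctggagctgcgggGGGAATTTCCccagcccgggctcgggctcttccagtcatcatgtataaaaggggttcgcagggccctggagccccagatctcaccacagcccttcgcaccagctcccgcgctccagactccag
Hspe1 promoter (chr1:55087898-55088197, plus strand, heat shock element 84 bases before the start): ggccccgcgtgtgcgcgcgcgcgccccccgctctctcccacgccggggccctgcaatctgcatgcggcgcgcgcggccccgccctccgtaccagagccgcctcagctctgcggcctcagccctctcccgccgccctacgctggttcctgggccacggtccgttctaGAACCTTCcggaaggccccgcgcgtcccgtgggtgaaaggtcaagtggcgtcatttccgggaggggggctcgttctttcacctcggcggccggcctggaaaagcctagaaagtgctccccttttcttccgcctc

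RefSeq gave a promoter for 11591 of the tested genes. The AP-1 motif was in 5.20% of all 32851 promoters, in 3.81% of those of tested genes and in 5.93% of those of genes that rose. Among the promoters of the 100 largest increases, a set chosen after the values were seen, it was in 16 of 95, or 16.8%, and among those of the 100 largest decreases in 3 of 84, or 3.57%. The NF-kappaB motif was in 4.51% of all promoters, 5.42% of those of tested genes and 5.77% of those of genes that rose. By list it was in 26.9% for chemokine ligands, 31.4% for IL-1, TNF and NF-kappaB feedback and 40.7% for antigen presentation, where 5 of 31 genes rose. The heat shock motif was in 7.86% of all promoters, 5.74% of those of tested genes, 6.75% of those of genes that rose and 29.5% of those of chaperones. The motifs CACGTG and TGACNNNGC were also searched. They were in 11.9% and 15.7% of promoters of genes that rose, against 9.4% and 14.1% of those of tested genes. These shares describe the sequences and were not tested.

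Neutrophil-attracting chemokines and the endothelial selectins were among the genes that rose. Cxcl3, a ligand of the neutrophil receptor CXCR2, was at 135, 93 and 48 in ipsilateral libraries and at 0, 2 and 0 in contralateral ones (adjusted p = 1.9e-06), and no fold is given against values so low. Cxcl2, of the same group, was at 191, 175 and 49 against 9, 22 and 2, a log2 difference of 3.75 ± 1.11 (adjusted p = 0.018, and 0.096, 0.073 and 0.066 without contralateral library 3, ipsilateral library 1 or ipsilateral library 2). Cxcl12, which holds CXCR4-bearing cells at the vessel, moved the other way, from 14657, 14751 and 15158 contralaterally to 6309, 6617 and 7006 ipsilaterally. All its ipsilateral values lay below all other values of the 24 h groups, and it fell by 1.16 on the log2 scale (SE 0.16, adjusted p = 6e-05). Of 27 tested chemokine ligands 10 rose and 1 fell (median 1.39), with 6 to 9 rising when 1 library was left out, the fewest without ipsilateral library 2.

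Selp (P-selectin, ENSMUSG00000026580, chromosome 1, 164115264 to 164150026, plus strand), on which leukocytes roll, was at 2519, 2890 and 2406 in ipsilateral and at 106, 207 and 15 in contralateral libraries, a 36.7-fold difference (log2 5.20 ± 1.60, adjusted p = 0.023). Sele (E-selectin) was at 816, 1156 and 846 against 44, 128 and 11, a log2 difference of 4.50 ± 1.46 (adjusted p = 0.03). The groups were far apart in both selectins, while the contralateral values spread widely. Without contralateral library 3, ipsilateral library 1 or ipsilateral library 2, the adjusted p of Selp was 0.11, 0.061 and 0.062. The call of Sele was lost when any library but contralateral library 2 was left out, with adjusted p of 0.13 without contralateral library 3 and 0.053 without ipsilateral library 3. Ackr1, the venular receptor that presents chemokines, was at 10655, 13195 and 11323 against 923, 2012 and 336 and rose by 3.77 ± 0.87 (adjusted p = 0.0035). Of 17 tested endothelial adhesion molecules 4 rose and none fell, with 2 rising without contralateral library 3, ipsilateral library 1 or ipsilateral library 2.

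Many transcripts of myeloid cells were higher in ipsilateral vessels. Of 23 tested neutrophil genes 15 rose and none fell, with a median of 2.47 and medians of 2.71, 2.32 and 2.46 in the 3 pairs. Summed over the 25 neutrophil genes in the file, they came to 54356, 43161 and 39002 normalized counts ipsilaterally and to 18179, 33381 and 11802 contralaterally. The neutrophil calprotectin genes S100a8 and S100a9 were at 690 to 1404 and 1017 to 2718 ipsilaterally, against 132 to 294 and 164 to 352 contralaterally, and Ly6g was at 20, 21 and 9 ipsilaterally and at 3, 2 and 4 contralaterally, low throughout but without overlap. S100a8 and S100a9 were at 229 and 340 in contralateral library 2, where the sum was 33381. In sham contralateral library 1 they were at 23 and 22 and the sum was 14329. The sum thus rested mainly on other genes and does not measure neutrophils. Trem1 (ENSMUSG00000042265, chromosome 17, 48232768 to 48246924, plus strand), the activating receptor of neutrophils and monocytes, was at 195, 97 and 163 against 5, 1 and 0, the largest increase by the rule for named genes (log2 6.00 ± 0.87, adjusted p = 7.1e-05). Its contralateral values are so low that this size depends on the 1 that was added before the logarithm. Saa3, an acute-phase protein, was at 843, 847 and 648 against 57, 53 and 26 and rose by 4.14 ± 0.71 (adjusted p = 0.00033). How far these transcripts and the cytokine values above came from attached leukocytes was not tested.

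Macrophage and monocyte genes rose in 17 of 32 cases and fell in none (2 fell without ipsilateral library 3), with a median of 1.09. Arg1, the arginase of alternatively activated macrophages, was at 329, 349 and 189 against 15, 12 and 2 (log2 5.03 ± 0.70, adjusted p = 5.2e-05). Chil3 (Ym1) was at 3089, 1181 and 2663 against 224, 119 and 138 and rose by 3.78 ± 0.66 (adjusted p = 0.0004). The monocyte receptor Ccr2 was at 612, 417 and 686 against 102, 102 and 70, while the perivascular macrophage genes Mrc1 and Cd163 overlapped between the hemispheres, at 1151 to 2996 and 387 to 941 ipsilaterally and 1670 to 2305 and 584 to 922 contralaterally. Leukocyte integrins rose in 5 of 7 tested genes, led by Itgal (426, 214 and 307 against 49, 39 and 51, log2 2.70 ± 0.46, adjusted p = 0.00034) and Itgam (252, 195 and 231 against 49, 50 and 30, log2 2.40 ± 0.26, adjusted p = 4.3e-06). Both are chains of receptors with which leukocytes hold on to endothelium.

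Microglial genes did not move as a group. Of 20 tested genes 4 rose and 1 fell, with a median of 0.08. After the medians of the libraries were set equal, 4 rose and 3 fell, and under the block 4 fell. Without contralateral library 2, 2 rose and 5 fell, without ipsilateral library 1, 2 rose and 0 fell, and without ipsilateral library 3, 3 fell, while 0 fell without contralateral library 1 or 3 or ipsilateral library 2. Selplg, the P-selectin ligand, rose from 154, 100 and 157 to 497, 304 and 244 (log2 1.30 ± 0.36, adjusted p = 0.011), and Siglech, a gene of resting microglia, fell from 73, 41 and 74 to 19, 17 and 34 (log2 -1.40 ± 0.40, adjusted p = 0.015). Both calls were lost without ipsilateral library 1, with adjusted p of 0.077 and 0.061. That of Selplg was also lost without contralateral library 2 (0.055), and that of Siglech without contralateral library 1 (0.057), contralateral library 3 (0.061) or ipsilateral library 2 (0.069). Of 14 tested T and B cell genes 6 rose (3 without ipsilateral library 2), among them Lck (32, 32 and 26 against 11, 13 and 9, log2 1.38 ± 0.49, adjusted p = 0.046), whose call was lost whichever of the 6 libraries was left out, with adjusted p of 0.063 to 0.13. The summed T and B cell genes were low in both hemispheres, at 412 to 435 ipsilaterally and 188 to 317 contralaterally, and Trac did not separate them (17 to 25 against 18 to 26).

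**Figure D3:**
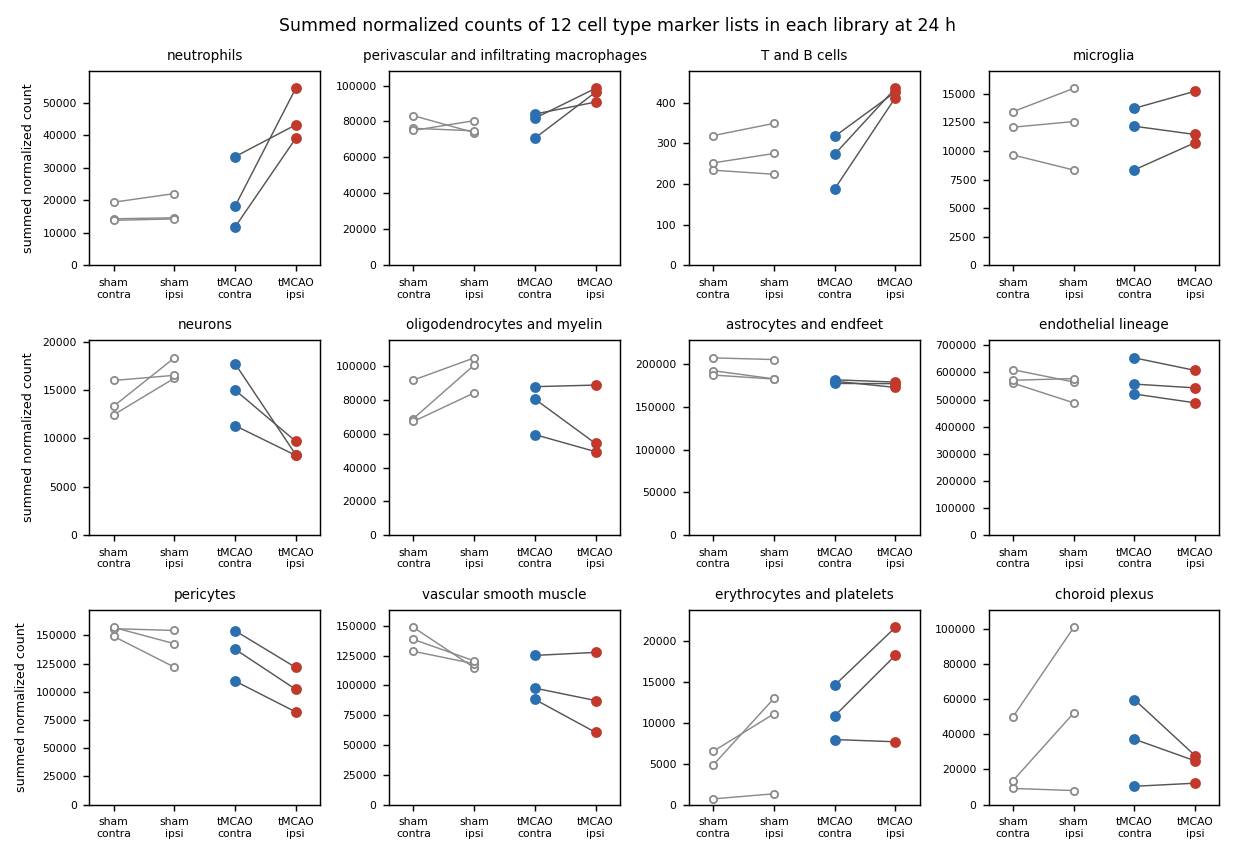
Summed normalized counts of 12 lists of cell type marker genes (vertical axes from 0) in each library at 24 h after sham surgery (open grey circles) and tMCAO (blue contralateral, red ipsilateral), with lines between hemispheres of the same replicate number. Sums of the neutrophil list lie at 39002 to 54356 ipsilaterally and at 11802 to 33381 contralaterally. They rest mainly on genes other than S100a8 and S100a9. Neuron sums lie at 8248 to 9704 and 11329 to 17746, and endothelial sums overlap.

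Several genes of matrix breakdown rose strongly. Mmp3 (stromelysin 1, ENSMUSG00000043613, chromosome 9, 7445822 to 7455975, plus strand) was at 1892, 1996 and 1329 in ipsilateral and at 74, 69 and 14 in contralateral libraries, a 40.0-fold difference (log2 5.32 ± 1.01, adjusted p = 0.00079). Adamts4, which cuts proteoglycans, was at 2776, 3543 and 1286 against 133, 705 and 62 and rose by 3.68 ± 0.76 (adjusted p = 0.0016). Its contralateral library 2 lay well above the other contralateral ones and still below every ipsilateral one. Of 28 tested metalloproteinases and inhibitors 9 rose and 3 fell, with a median of 0.50, and 1 fell without contralateral library 1 or ipsilateral library 2 and 5 under the block. Among those that fell were Reck, a membrane inhibitor of metalloproteinases that also takes part in Wnt7 signalling (3389, 2293 and 5158 against 7007, 4458 and 7913, log2 -0.87 ± 0.29, adjusted p = 0.031), and Mmp28 (453, 592 and 565 against 777, 1058 and 907, log2 -0.77 ± 0.20, adjusted p = 0.0076). The call of Reck was lost without contralateral library 1 (adjusted p = 0.096) or 3 (0.13) and without ipsilateral library 1 (0.081) or 2 (0.18).

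Tnc (tenascin C, ENSMUSG00000028364, chromosome 4, 63959785 to 64047015, minus strand), a matrix glycoprotein of wounds, was at 1465, 2351 and 879 ipsilaterally and at 28, 53 and 23 contralaterally, a 43.2-fold difference (log2 5.43 ± 0.46, adjusted p = 5.8e-07). The proteoglycan Vcan (versican) was at 735, 600 and 704 against 121, 116 and 97 and rose by 2.60 ± 0.26 (adjusted p = 2.1e-06). Of 51 tested collagens, laminins and other basement membrane genes 13 rose and 3 fell, with a median of 0.20. The number that fell was 0 or 1 without contralateral library 1 or 3 or ipsilateral library 1 or 2, 5 without contralateral library 2 or ipsilateral library 3, and 6 under the block. Col4a5 and Col4a6, the chains of a minor type IV collagen, fell by 0.86 (SE 0.30) and 0.97 (SE 0.32), with adjusted p of 0.044 and 0.03. Both calls were lost without contralateral library 1 or 3 and without ipsilateral library 1 or 2, with adjusted p of 0.086 to 0.25 for Col4a5 and 0.091 to 0.17 for Col4a6. The fibronectin receptor chain Itga5 (3893, 4587 and 2963 against 1301, 1575 and 1168, log2 1.49 ± 0.15, adjusted p = 2.1e-06) and Itgb3 (486, 727 and 482 against 194, 230 and 204, log2 1.40 ± 0.20, adjusted p = 7.2e-05) were among 3 of 15 matrix integrins that rose, and 1 fell (0 or 2 when 1 library was left out). The 1 that fell is 6.67% of them, against 5.14% of all tested genes.

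Coagulation and fibrinolysis genes rose in 7 of 25 cases and fell in none. Thbs1 (thrombospondin 1), an inhibitor of angiogenesis, was at 6464, 3109 and 4692 against 335, 808 and 314 (log2 3.37 ± 0.51, adjusted p = 0.0001), and F10 (coagulation factor X) was at 117, 38 and 84 against 8, 9 and 5 (log2 3.17 ± 0.63, adjusted p = 0.0011). Among vasoactive genes, Hmox1 (heme oxygenase 1, ENSMUSG00000005413, chromosome 8, 75093621 to 75100589, plus strand) was at 6397, 7461 and 2069 against 534, 510 and 438, a 9.37-fold difference (adjusted p = 3.8e-06). The endothelin receptor gene Ednrb was at 2063, 2816 and 1295 against 257, 422 and 245 and rose by 2.71 ± 0.34 (adjusted p = 1.7e-05). Edn3, a ligand of that receptor, was lower, at 1616, 987 and 3132 against 4227, 2578 and 6374 (log2 -1.27 ± 0.39, adjusted p = 0.023). Its groups overlapped, and its call was lost without contralateral library 1 (adjusted p = 0.059) or 3 (0.13) and without ipsilateral library 1 (0.072) or 2 (0.15).

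Apln (apelin), a peptide of growing vessel tips, was at 6818, 3074 and 1958 against 416, 285 and 172 and rose by 3.65 ± 0.42 (adjusted p = 7.8e-06). Plaur, the urokinase receptor, was at 4730, 4277 and 1685 against 609, 2497 and 284 and did not pass the test (log2 2.10 ± 1.02, adjusted p = 0.14), but passed with a replicate block (adjusted p = 0.0005). Of 33 tested genes of VEGF, angiopoietins and tip cells 6 rose and 1 fell, with 12 rising under the block and 3 without contralateral library 3, and with 2 falling under the block. The 1 that fell was Robo1 (log2 -0.69 ± 0.20, adjusted p = 0.018, and 0.069 and 0.093 without contralateral library 3 or ipsilateral library 2). Hey1, a Notch target of arteries, fell from 1726, 1407 and 1589 to 986, 1068 and 1043 (log2 -0.60 ± 0.17, adjusted p = 0.012), a call lost without contralateral library 1 (0.054) or, with the log2 difference at -0.57, without ipsilateral library 1. Lcn2 (lipocalin 2), among the most abundant of these genes, was at 32368, 23389 and 24827 against 5799, 13164 and 2690. It did not pass (log2 2.17 ± 1.06, adjusted p = 0.14), but passed with a replicate block (adjusted p = 0.00015) and in a fit of the 6 libraries alone (0.022).

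Transporters of the blood-brain barrier were the list with the largest share of lower genes. Of 38 tested transporters 17 fell and 3 rose, or 44.7% and 7.89%, with a median of -0.59. The medians of the 3 pairs were -0.74, -0.64 and -0.59. Slc19a3 (ENSMUSG00000038496, chromosome 1, 83012523 to 83038448, minus strand), a thiamine transporter, was at 873, 839 and 1222 ipsilaterally and at 3028, 2430 and 3019 contralaterally. It fell by 1.54 on the log2 scale (SE 0.18, adjusted p = 7.3e-06), and its 6 sham values of 2648 to 3333 were all above the ipsilateral ones. Tfrc, the transferrin receptor that carries iron, was at 2764, 1941 and 3884 against 7985, 6090 and 10583 (log2 -1.54 ± 0.46, adjusted p = 0.018), with adjusted p of 0.078, 0.052 and 0.088 without contralateral library 3, ipsilateral library 1 or ipsilateral library 2. Slc7a5, the large neutral amino acid transporter, fell from 29136, 29706 and 24494 to 11460, 11411 and 11826 (log2 -1.26 ± 0.24, adjusted p = 0.0007).

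Slc16a1, the monocarboxylate transporter for lactate and ketone bodies, fell from 14194, 10256 and 16337 to 6254, 5091 and 8318 (log2 -1.06 ± 0.30, adjusted p = 0.014), a call lost without contralateral library 3 (0.064) or ipsilateral library 2 (0.07). Mfsd2a, the lipid transporter that limits transcytosis, was at 4021, 2666 and 3764 against 7732, 5576 and 6437 and fell by 0.93 (SE 0.21, adjusted p = 0.003). Slc2a1, the glucose transporter and the most abundant of them, was at 129950, 133462 and 119196 against 186365, 202313 and 153181. Its groups did not overlap, but it did not pass the test (log2 -0.49 ± 0.34, adjusted p = 0.31). Opposite in direction, Slco2a1, a prostaglandin transporter, rose from 219, 232 and 244 to 477, 983 and 578 (log2 1.48 ± 0.21, adjusted p = 7.2e-05), and the efflux pump Abcb1b rose from 404, 337 and 312 to 790, 566 and 598 (log2 0.88 ± 0.17, adjusted p = 0.0011). The number of transporters that fell was between 9 and 18 when 1 library was left out, with 9 without ipsilateral library 2 and 11 without contralateral library 3. Over the 38 genes, the sum was 305284 to 331120 ipsilaterally and 509947 to 548546 contralaterally. Slc2a1, which did not pass, made up a large part of each sum. After sham surgery at 24 h the sums also did not overlap, at 431410 to 484864 ipsilaterally and 507099 to 518104 contralaterally. The gap after tMCAO is therefore not that of the occlusion alone.

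Wnt and norrin signalling genes showed the same tilt. Of 34 tested genes 11 fell and 2 rose, with a median of -0.53 and with 7 to 12 falling when 1 library was left out, the fewest without contralateral library 3. Notum, a secreted inhibitor and target of Wnt signalling, fell from 980, 1058 and 1183 to 399, 341 and 516 (log2 -1.37 ± 0.25, adjusted p = 0.00057). Fgfbp1, a growth factor carrier under Wnt control in brain endothelium, was at 183, 61 and 253 against 578, 232 and 569 (log2 -1.58 ± 0.54, adjusted p = 0.037). Its groups overlapped and its call was lost without contralateral library 1 or 3 (both 0.13), ipsilateral library 1 (0.056) or ipsilateral library 2 (0.22). Ccnd1 (cyclin D1) rose from 1608, 1679 and 1646 to 3523, 2619 and 2694 (log2 0.83 ± 0.16, adjusted p = 0.00077). Dkk2, a secreted modulator of the pathway, was at 287, 193 and 317 against 177, 117 and 138 (log2 0.87 ± 0.27, adjusted p = 0.025), with its call lost without contralateral library 2 (0.095) or 3 (0.067) and without ipsilateral library 1 (0.089) or 3 (0.088).

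**Figure D4:**
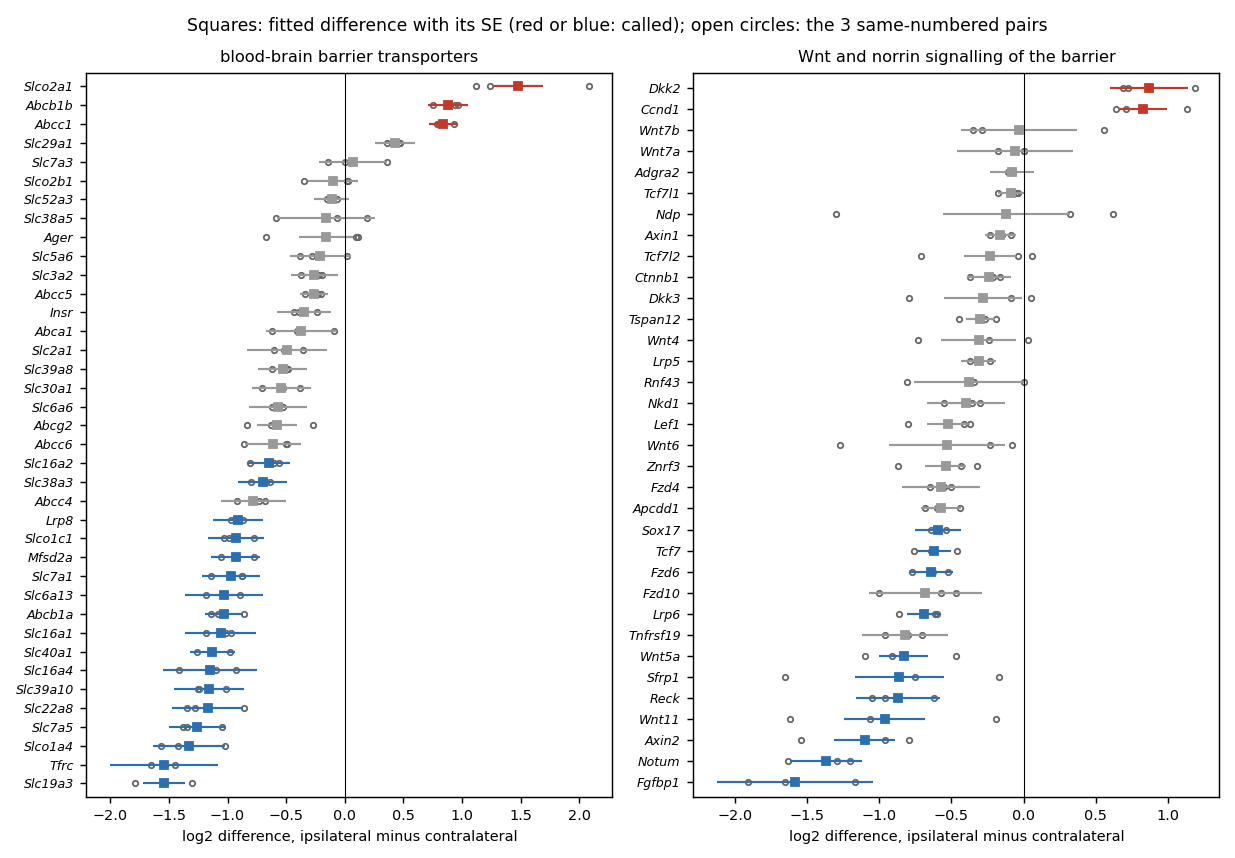
Log2 difference between ipsilateral and contralateral vessels 24 h after tMCAO for the 38 tested blood-brain barrier transporters (left) and the 34 tested genes of Wnt and norrin signalling (right). Squares are the fitted differences with their SE (blue called lower, red called higher, grey not called) and open circles the 3 same-numbered pairs. In the left panel 17 genes are blue and 3 red, and in the right panel 11 are blue and 2 red.

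Genes that define the endothelium and its junctions moved little beside these. Of 39 endothelial lineage genes 3 fell and none rose, with a median of -0.06. Among them, named after their values were seen, were Adgrf5 (log2 -0.68, adjusted p = 0.0026) and Sox17 (log2 -0.59, adjusted p = 0.013). The call of Sox17 was lost without contralateral library 2 or 3 or ipsilateral library 1, where its log2 difference was -0.55, -0.55 and -0.49. Setting the medians of the libraries equal raised the count that fell to 8, and under the block it was 5. Pecam1 and Cdh5, which mark all endothelium, were at 28195 to 37350 and 13656 to 25185 ipsilaterally and at 24117 to 34111 and 12607 to 22668 contralaterally, with overlap in both. Of 24 tight junction genes 2 fell and none rose (median -0.23), and both were named after their values were seen. Tjp1 (ZO-1) fell from 16294, 18722 and 16462 to 10290, 9953 and 11739 (log2 -0.69 ± 0.13, adjusted p = 0.001), and Ocln (occludin) from 9350, 9155 and 8863 to 5798, 5836 and 6192 (log2 -0.62 ± 0.12, adjusted p = 0.00099). After correction for transcript length and GC content, Ocln and Adgrf5 were inside the fold limit, at log2 -0.46 and -0.52, and lost their calls. Of 17 genes of transcytosis, caveolae and fenestration 3 fell and 2 rose, with a median of -0.13, and 1 rose without contralateral library 1 or 3 or ipsilateral library 1 or 2. Those that fell were Tfrc and Mfsd2a, given above, and, named after its values were seen, the caveolar gene Cavin2 (log2 -0.81 ± 0.18, adjusted p = 0.0033). The caveolar gene Cavin3 rose (log2 0.78 ± 0.26, adjusted p = 0.032). The call of Cavin3 was lost without contralateral library 1 (0.10) or 3 (0.11) and without ipsilateral library 1 (0.088) or 2 (0.12).

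Pericyte genes were lower in 7 of 20 cases and higher in 2, with a median of -0.34. Gm13861 (150 to 307 against 313 to 494, log2 -0.92 ± 0.19, adjusted p = 0.0016) and Atp13a5, a pericyte ATPase (1186 to 2106 against 2347 to 3640, log2 -0.89 ± 0.23, adjusted p = 0.0078), fell most by the rule, and the call of Atp13a5 was lost without ipsilateral library 2 (0.062). Mcam rose from 5993, 4925 and 6821 to 11103, 9773 and 11043 (log2 0.86 ± 0.16, adjusted p = 0.00057). The interferon-induced membrane gene Ifitm1 was at 3196, 2938 and 3599 against 1427, 1168 and 1207 (log2 1.36 ± 0.46, adjusted p = 0.036), a call lost whichever library was left out (0.059 to 0.088). Rgs5, which is very abundant in pericytes, was at 29464 to 39499 against 51141 to 66757, whereas Pdgfrb was at 7311 to 10890 against 5408 to 8746 with overlap. Between 3 and 9 pericyte genes fell when 1 library was left out, with 3 without ipsilateral library 2 and 4 without contralateral library 3. Of 19 smooth muscle genes none passed (2 fell without ipsilateral library 3 and 2 rose without ipsilateral library 2), with Acta2 at 9524 to 24437 against 13574 to 21497. Among vessel and meningeal fibroblast genes 2 of 21 fell (1 to 6 when 1 library was left out, 7 under the block), among them Ogn (313, 241 and 513 against 865, 679 and 1060, log2 -1.33 ± 0.25, adjusted p = 0.00063).

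Neuronal transcripts, which come with the vessel fraction, were lower in ipsilateral libraries. Of 30 tested neuronal genes 10 fell and none rose (median -0.68), with summed levels of 8326, 9704 and 8248 ipsilaterally against 17746, 15023 and 11329 contralaterally. Camk2a, a synaptic kinase, was at 646, 1317 and 717 against 3482, 2339 and 1793 (log2 -1.53 ± 0.35, adjusted p = 0.0032). Receptors for glutamate, GABA and glycine fell in 14 of 38 cases, led by the glycine receptor subunit Glrb (137, 104 and 149 against 370, 410 and 336, log2 -1.52 ± 0.16, adjusted p = 3.3e-06). That count was 6, 7 and 8 without contralateral library 1, contralateral library 2 and ipsilateral library 2. The count of neuronal genes that fell was 4 without contralateral library 1 and 6 without contralateral library 2 or ipsilateral library 1. Of 29 astrocyte genes 4 fell (1 without contralateral library 1 or ipsilateral library 1) and 1 rose, with the glutamate transporter Slc1a2 (3796, 5244 and 3904 against 11099, 9571 and 6941, log2 -1.08 ± 0.31, adjusted p = 0.014) among those that fell. The call of Slc1a2 was lost without contralateral library 1 (0.062) or ipsilateral library 1 (0.058). Gfap overlapped between the hemispheres, at 1929, 4092 and 2369 against 1375, 2503 and 854. Of the oligodendrocyte genes, 1 of 22 fell (0 to 2 when 1 library was left out), or 4.55% against 5.14% of all tested genes.

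Choroid plexus transcripts differed between libraries more than between hemispheres. Ttr (transthyretin) was at 16687, 7395 and 19655 ipsilaterally and at 25129, 6531 and 42040 contralaterally, and none of 18 choroid plexus genes passed. Hemoglobin transcripts also varied within groups, with Hbb-bs at 3675 to 11838 against 4000 to 8219.

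Genes that make and clear proteins rose by small and even steps. Of 85 tested genes of ribosome biogenesis 47 rose and none fell, or 55.3%, with a median of 0.63 and medians of 0.73, 0.58 and 0.60 in the 3 pairs. Nhp2 (ENSMUSG00000001056, chromosome 11, 51619735 to 51623714, plus strand), a core protein of the particles that modify ribosomal RNA, was at 1067, 1022 and 777 ipsilaterally and at 318, 310 and 283 contralaterally, a 3.11-fold difference (log2 1.64 ± 0.13, adjusted p = 2.6e-07). Rrp12 (369, 328 and 291 against 110, 112 and 87), which takes part in the export of ribosomal subunits, rose by 1.67 ± 0.22 (adjusted p = 2.6e-05). In both genes the spread within a hemisphere was small beside the distance between hemispheres. Of 48 proteasome genes 24 rose and none fell (median 0.59), among them the deubiquitinase subunit Psmd14 (1924, 2170 and 1602 against 985, 894 and 997, log2 0.98 ± 0.09, adjusted p = 9.9e-07) and Psmd3 (4658, 4542 and 3317 against 2155, 2191 and 1961, log2 0.97 ± 0.11, adjusted p = 4.3e-06). Summed proteasome genes were at 98124 to 121012 ipsilaterally and 71591 to 75491 contralaterally. When 1 library was left out, 40 to 57 ribosome biogenesis genes and 20 to 35 proteasome genes rose.

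Of 54 heat shock proteins and chaperones 18 rose and none fell (median 0.34). Hspe1, the mitochondrial chaperonin whose promoter is shown above, was at 586, 506 and 480 against 279, 234 and 230 (log2 1.08 ± 0.13, adjusted p = 1.1e-05), and Cct3, a subunit of the cytosolic chaperonin, at 4638, 4465 and 3782 against 2306, 2115 and 2077 (log2 0.98 ± 0.09, adjusted p = 6.6e-07). After the medians of the libraries were set equal, 12 rose and 1 fell. Hspa1a and Hspa1b, nearly identical copies, were also called, but their reads cannot be assigned with certainty. Of 56 genes of the integrated stress and unfolded protein response 20 rose and 1 fell (median 0.47). Gdf15, a stress-induced hormone, was at 350, 70 and 62 against 8, 5 and 6 and rose by 4.01 ± 0.59 (adjusted p = 8.4e-05), with library 1 far above the other ipsilateral libraries. The transcription factor Cebpb was at 1222, 1175 and 841 against 263, 554 and 182 (log2 1.83 ± 0.46, adjusted p = 0.0062). The 1 gene that fell was Slc7a5, given above as a transporter.

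Of 55 genes of oxidative stress defence and metallothioneins 24 rose and none fell (median 0.58), led by Hmox1. Mt2 (metallothionein 2) was at 16240, 25096 and 9642 against 1694, 12241 and 956 and did not pass (log2 2.54 ± 1.21, adjusted p = 0.13). It passed with a replicate block (9.6e-05) and without contralateral library 2, whose value overlapped the ipsilateral ones (log2 3.63, adjusted p = 0.049). Of 68 oxidative phosphorylation genes 9 rose and none fell (median 0.38), the largest that passed being Atp5g1 (1043, 983 and 930 against 508, 432 and 472, log2 1.07 ± 0.13, adjusted p = 1.3e-05). That count was 3 after the medians of the libraries were set equal and 3 after correction for transcript length and GC content, and 4 without contralateral library 2.

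**Figure D5:**
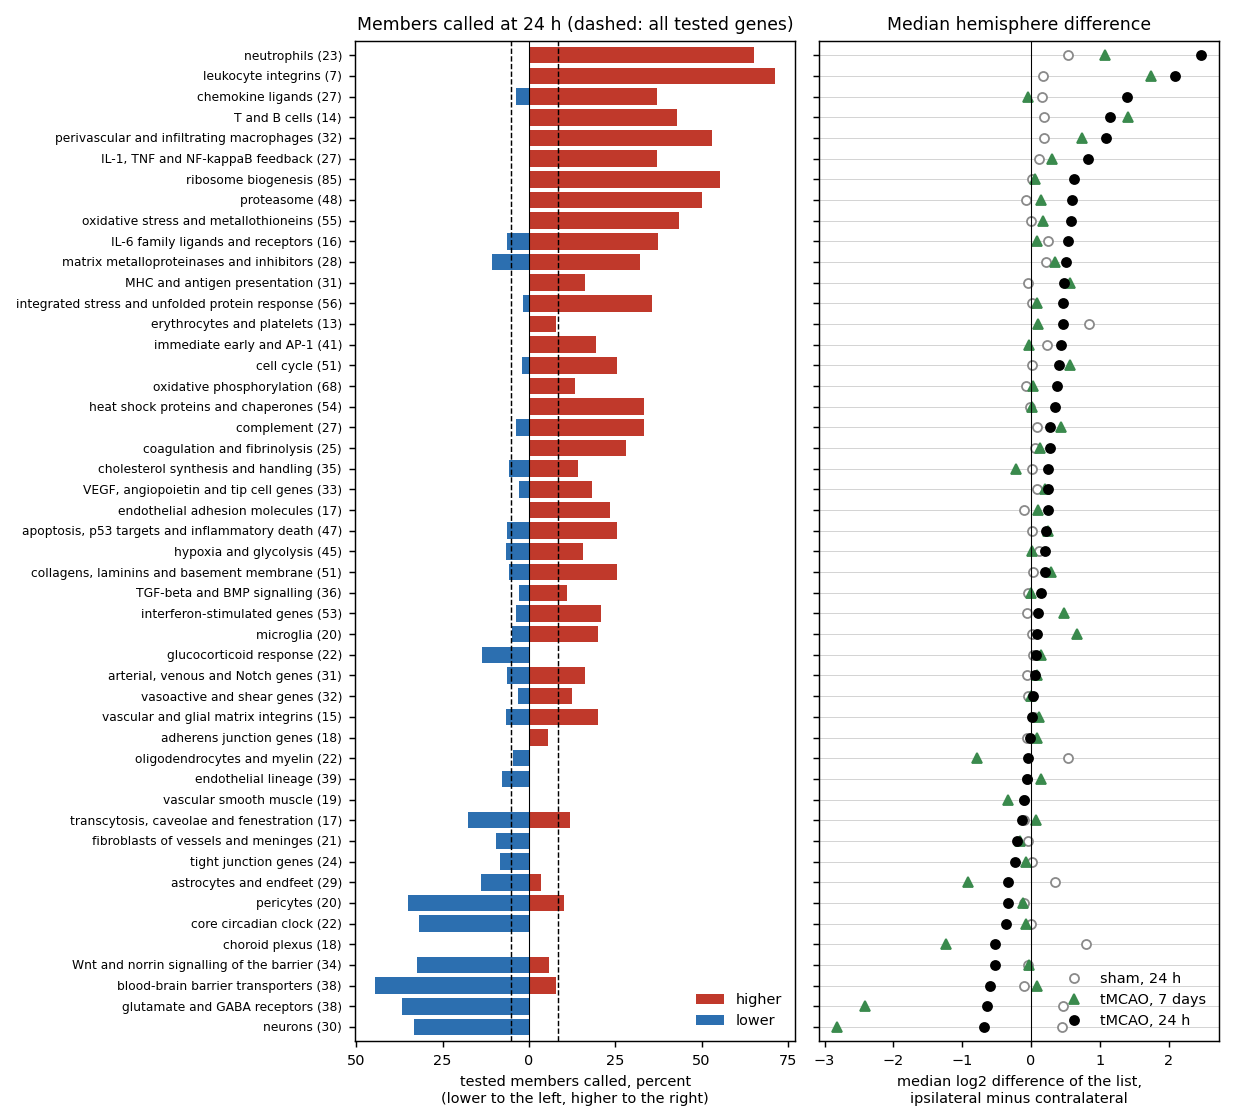
Left panel, percent of the tested members of each of 48 gene lists (number tested in brackets) that were called lower (to the left) or higher (to the right) in ipsilateral vessels 24 h after tMCAO, with dashed lines at 5.14% and 8.51%, the shares of all tested genes. Right panel, median log2 hemisphere difference of each list after tMCAO at 24 h (black), after tMCAO at 7 days (green) and after sham surgery at 24 h (open). Neutrophil genes head the lists with a median of 2.47 and neuronal genes end them with -0.68.

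Smaller lists were divided. Hypoxia and glycolysis genes rose in 7 of 45 cases and fell in 3 (1 without contralateral library 3). These are 15.6% and 6.67%, against 8.51% and 5.14% of all tested genes, so that the share that fell was near that of all genes. Egln3, an oxygen sensor, was at 67, 43 and 41 against 17, 24 and 17 (log2 1.32 ± 0.36, adjusted p = 0.012, and 0.069 without ipsilateral library 1). Under the block 11 rose and 5 fell. Cholesterol synthesis genes such as Hsd17b7 (267, 243 and 208 against 107, 102 and 80, log2 1.31 ± 0.14, adjusted p = 4.1e-06) and Sqle (497, 486 and 492 against 234, 206 and 179, log2 1.26 ± 0.21, adjusted p = 0.00024) were among 5 of 35 that rose. Apoe, which carries cholesterol, and Mylip, a ubiquitin ligase of cholesterol handling, fell by 0.69 (SE 0.19) and 0.61 (SE 0.12), with adjusted p of 0.011 and 0.0013. The call of Apoe was lost without contralateral library 3 (0.067) or ipsilateral library 1 (0.055) or 2 (0.056), and that of Mylip without contralateral library 3 or ipsilateral library 2, where its log2 difference was -0.57 and -0.49. Circadian clock genes fell in 7 of 22 cases and rose in none. They included Hlf (830, 542 and 1299 against 2057, 1546 and 2375, log2 -1.23 ± 0.25, adjusted p = 0.0013) and Rora (512, 453 and 500 against 868, 1053 and 870, log2 -0.92 ± 0.11, adjusted p = 8e-06), which are transcription factors of the clock and its outputs. Without ipsilateral library 1, 3 clock genes fell, and without ipsilateral library 2, contralateral library 2 or contralateral library 3, 4 fell.

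Complement genes rose in 9 of 27 cases, with C3, the central component, at 337, 295 and 291 against 49, 30 and 28 (log2 3.11 ± 0.47, adjusted p = 0.00011). Cd59a, which protects cells from complement, was the 1 that fell (log2 -0.74 ± 0.26, adjusted p = 0.046), a call lost whichever library was left out (0.058 to 0.14). Interferon-stimulated genes rose in 11 of 53 cases and fell in 2, with 6 rising and 2 falling without contralateral library 1 and 6 rising and 6 falling without ipsilateral library 2. Without contralateral library 3 or ipsilateral library 1, 0 fell, and without contralateral library 2 or ipsilateral library 3, 1 fell. Cxcl10, a chemokine for T cells, was at 97, 250 and 40 against 9, 21 and 5 (log2 3.19 ± 0.65, adjusted p = 0.0014) and Oas3, an antiviral enzyme, at 35, 58 and 27 against 7, 7 and 3 (log2 2.62 ± 0.67, adjusted p = 0.0073). In the opposite direction, Ifit2 fell by 0.66 (SE 0.20, adjusted p = 0.018) and Gbp7 by 0.65 (SE 0.21, adjusted p = 0.03). Ifit2 was at 268, 461 and 304 against 537, 467 and 593, with almost no difference in pair 2 (log2 -0.02). Without 1 library the adjusted p rose to at most 0.11 for Ifit2 and 0.14 for Gbp7, both without ipsilateral library 1. The calls were also lost without contralateral library 3 for both, without ipsilateral library 3 for Ifit2 and without contralateral library 2 for Gbp7. Among genes of antigen presentation, 5 of 31 rose (12 without contralateral library 2, 8 under the block), led by the lysosomal protease Ctss (1502, 1612 and 1636 against 798, 730 and 766, log2 1.05 ± 0.16, adjusted p = 0.00015).

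Immediate early and AP-1 genes rose in 8 of 41 cases and fell in none (median 0.43), with 16 rising under the block and 3 without contralateral library 1 or 3 or ipsilateral library 1 or 2. Fosl1 (Fra-1), a subunit of AP-1, was at 841, 677 and 258 against 16, 151 and 7 (log2 4.27 ± 1.47, adjusted p = 0.039). Myc was at 1087, 1152 and 721 against 106, 313 and 85 (log2 2.76 ± 0.87, adjusted p = 0.025). In both genes contralateral library 2 was the highest contralateral one. The calls were lost without contralateral library 1 or 3 and without ipsilateral library 1 or 2, with adjusted p of 0.10 to 0.16 for Fosl1 and 0.074 to 0.096 for Myc. Of 22 glucocorticoid response genes 3 fell (1 without contralateral library 3 or ipsilateral library 1) and none rose, with 6 and 3 under the block, among them Hif3a (log2 -1.10 ± 0.33, adjusted p = 0.019) and Sult1a1 (log2 -1.08 ± 0.36, adjusted p = 0.032). Without contralateral library 3 these p were 0.079 and 0.12, and without ipsilateral library 2 they were 0.10 and 0.17, with the calls also lost without ipsilateral library 1 and, for Sult1a1, contralateral library 1.

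Among genes of cell death, Ripk3 was at 185, 169 and 153 against 49, 60 and 60 (log2 1.57 ± 0.24, adjusted p = 9.9e-05) and its substrate Mlkl was at 445, 515 and 304 against 130, 158 and 139 (log2 1.53 ± 0.16, adjusted p = 3e-06), both acting in necroptosis. The p53 target Sesn1 fell from 4213, 4492 and 3904 to 1806, 1868 and 2185 (log2 -1.11 ± 0.29, adjusted p = 0.0089), and of 47 genes of apoptosis, p53 and inflammatory death 12 rose and 3 fell (1 without ipsilateral library 2). Cell cycle genes rose in 13 of 51 cases, with the transcription factor E2f2 (47, 32 and 33 against 6, 9 and 12, log2 1.96 ± 0.46, adjusted p = 0.0042) and the replication factor Gins2 (46, 86 and 56 against 16, 21 and 21, log2 1.61 ± 0.30, adjusted p = 0.00062) first. The inhibitor Cdkn1b was the 1 that fell, from 1370, 2058 and 1529 to 927, 938 and 1053 (log2 -0.74 ± 0.13, adjusted p = 0.00029, and -0.58 without contralateral library 2).

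The remaining large increases by the rule were 2 genes of less certain role. A730049H05Rik was at 210, 318 and 135 against 2, 13 and 9 (log2 4.80 ± 0.61, adjusted p = 1.9e-05). AA467197, the host gene of miR-147, was at 311, 374 and 175 against 22, 59 and 2 (log2 4.09 ± 1.14, adjusted p = 0.012, and 0.089 without contralateral library 3).

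The largest decreases were smaller than the largest increases, and several are known from neurons. Ano3, a membrane protein of the brain, was at 22, 21 and 19 against 121, 107 and 47 (log2 -1.99 ± 0.39). Tbr1, a transcription factor of cortical neurons, was at 29, 29 and 18 against 115, 97 and 52 (log2 -1.71 ± 0.41). Negr1, a neuronal adhesion molecule, and Ddn (dendrin), a protein of dendrites, fell by 1.70 (SE 0.28) and 1.70 (SE 0.33). Their values were 32 to 43 against 100 to 151 for Negr1 and 216 to 467 against 694 to 1345 for Ddn. 3110035E14Rik was at 58, 38 and 48 against 177, 162 and 100 (log2 -1.57 ± 0.32).

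Other genes among the 15 largest decreases were of mixed kinds. Ddc, the decarboxylase that makes dopamine and serotonin, was at 1542, 818 and 1691 against 5258, 2340 and 4344 (log2 -1.55 ± 0.34, adjusted p = 0.0024). Trp53inp1, a p53-induced gene, was at 947, 971 and 994 against 2721, 4383 and 2114 (log2 -1.59 ± 0.49, adjusted p = 0.023, and 0.097, 0.065 and 0.058 without contralateral library 2, ipsilateral library 1 or ipsilateral library 2). Omd (osteomodulin), a matrix protein, was at 53, 20 and 73 against 146, 124 and 167 (log2 -1.73 ± 0.34, adjusted p = 0.0011). Tecrl was at 63, 58 and 145 against 266, 191 and 405 (log2 -1.75 ± 0.42) and Scube2 at 88, 51 and 149 against 278, 177 and 346 (log2 -1.54 ± 0.37). Gm45552 (214, 276 and 462 against 899, 997 and 1244), Gm44220 (153, 112 and 222 against 461, 491 and 424) and Notumos (43, 30 and 66 against 135, 116 and 144) fell by 1.78 (SE 0.27), 1.55 (SE 0.20) and 1.55 (SE 0.34). Notumos lies beside Notum, and the setting for strand in the counting is not given in the sources used here, so that reads of overlapping genes cannot be told apart.

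Sham-operated mice gave the same hemisphere contrast without the occlusion. The difference between the hemisphere effects, tMCAO minus sham at 24 h, was itself called for 741 genes as more positive after tMCAO (4.64% of tested) and for 200 as more negative (1.25%). With same-numbered libraries as a replicate block these counts were 1224 and 645, and without sham ipsilateral library 1 they were 430 and 69. Fewer genes were also called without tMCAO ipsilateral library 1 (484 and 87) and sham contralateral library 2 (481 and 79). Without tMCAO contralateral library 1, tMCAO ipsilateral library 2 and sham contralateral library 3, 119, 115 and 104 were called as more negative. Of the 1360 genes higher in ipsilateral vessels 628 were called in the same direction in this test, and of the 821 lower genes 175, and no gene of either set was called in the opposite direction. The sham hemisphere difference had a median of 0.05 over the higher genes and -0.06 over the lower genes. These comparisons share the 6 tMCAO libraries, so that the counts are not independent of each other.

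By list, 40 of 85 ribosome biogenesis genes, 32 of 48 proteasome genes, 20 of 55 oxidative stress genes and 15 of 54 chaperones were more positive after tMCAO than after sham, and none of them was more negative. Of the blood-brain barrier transporters 5 of 38 were more negative and 2 more positive, and of Wnt and norrin genes 3 of 34 and 1. Of 30 neuronal genes 6 were more negative, where the medians of the hemisphere difference were -0.68 after tMCAO and 0.45 after sham. In neutrophil genes 2 of 23 were called, with medians of 2.47 after tMCAO and 0.53 after sham.

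The hemispheres also differed 7 days after tMCAO, when 485 genes were higher ipsilaterally (3.03%) and 1595 were lower (9.98%). The change between the times, 24 h minus 7 days, was called for 1099 genes as more positive at 24 h (6.88%) and for 311 as more negative (1.95%). These counts were 1508 and 797 with a replicate block and 313 and 107 in a fit of the compared groups alone. Of the genes higher at 24 h, 271 were also higher at 7 days and 11 were lower. Of those lower at 24 h, 230 were also lower and 2 were higher. The counts of the change fell to 541 and 140 without tMCAO contralateral library 3 of 24 h, to 634 and 125 without tMCAO ipsilateral library 1 of 24 h and to 574 and 114 without tMCAO contralateral library 1 of 7 days.

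Ribosome biogenesis genes had a median hemisphere difference of 0.63 at 24 h and 0.06 at 7 days, and 41 of 85 were called more positive at 24 h. For the proteasome these medians were 0.59 and 0.15, with 15 of 48 called, and for chaperones 0.34 and 0.02, with 12 of 54 called. Transporters of the barrier stood at -0.59 and 0.08, with 7 of 38 called more negative at 24 h, and none of the 38 was lower at 7 days. Slc19a3 was at 1941, 1710 and 1901 ipsilaterally and 2043, 2144 and 3132 contralaterally at 7 days. Leukocyte integrins had medians of 2.09 and 1.74, with 5 of 7 higher at both times and none called as different between them. Macrophage genes had medians of 1.09 and 0.74, with 17 and 10 of 32 higher. The median hemisphere difference of neuronal genes was -0.68 at 24 h and -2.82 at 7 days. Of 30 such genes 22 were called more positive at 24 h than at 7 days, with 29 of 30 lower at 7 days. Values of either hemisphere can move this difference. Contralateral Camk2a was at 3482, 2339 and 1793 at 24 h and at 9612, 3694 and 3278 at 7 days. Ipsilateral Camk2a was at 646, 1317 and 717 and at 584, 545 and 745. In Ano3 the ipsilateral values were 22, 21 and 19 at 24 h and 4, 9 and 6 at 7 days. Cell cycle genes were higher in 13 of 51 cases at 24 h and in 21 at 7 days, and 9 were called more negative at 24 h.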

How the data were processed

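Microvessels were isolated from perfused hemispheres, and poly(A) RNA libraries were made with a stranded kit. Reads were aligned to mm10 with STAR and counted per gene, leaving out reads that mapped to several places, and the authors divided the counts by DESeq2 size factors. The submitters' processing notes name STAR 2.5.2b, featureCounts 1.5.1 and DESeq2 1.6.2, whereas the methods of the study name other versions of STAR and DESeq2, so that the versions behind the values are uncertain. The deposited values are such normalized counts rounded to whole numbers, treated here as a score and not as raw counts. The study left out outlying samples and kept 3 libraries per group, a choice that can narrow the spread within groups.

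Values were analysed as log2(value + 1) with limma 3.58.1 (R 4.3.3) on the 15982 of 17270 genes with a mean above 5 over the 24 libraries, as 8 group means in 1 fit with a mean-variance trend and without a block. Adjusted p-values are Benjamini-Hochberg over these genes. A gene was called with an adjusted p under 0.05 and a difference beyond 1.5-fold. In data simulated for the hemisphere comparison over these genes, the procedure recovered 55% of genes changed by a log2 of 1 and 80.8% of those changed by a log2 of 2, and called 6 of 15739 unchanged genes. The simulated libraries were independent of each other, and far fewer genes were changed than were called here. These rates may therefore differ in the measured data. Depth limits low genes most, since a count near 0 moves a logarithm by a large step. The p-values of this fit measure the spread between pools of 3 hemispheres within all 8 groups. They do not measure the spread of the differences within same-numbered pairs, which the fit with a replicate block uses.

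The members of the comparison and the 48 gene lists were chosen with earlier results of these data known. Named genes were the 15 largest increases and decreases among called genes with a mean of at least 50 in the 6 libraries, no overlap and 1 direction in all 3 pairs, then the 2 largest increases and decreases of each list with a mean of at least 20, the 5 largest differences each way against sham and against 7 days with a mean of at least 50, and defining genes of cell types. Defining genes are given as levels. Hspa1a, Hspa1b and the difference of Slc2a1 were, beside the genes marked in the text, chosen after their values were seen. Some genes that the rule selects are not reported here.

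The pairs take same-numbered hemispheres as 1 pool of mice, which the labels do not state. Deviations of same-numbered libraries from their group means were positively correlated in all groups, though some correlations were near 0. They were 0.066, 0.36 and 0.327 in the 3 pairs after tMCAO at 24 h, against at most 0.031 for other numbers. At 7 days after tMCAO they were 0.059, 0.309 and 0.064, against at most 0.057. Deviations within a group sum to 0, which by itself pushes the correlations for other numbers down. The alternatives tried were a replicate block, median centring, correction for length and GC content, other added values and filters, no fold limit, a fit of the compared groups alone and leaving out libraries.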

Additional observations from a re-analysis of the deposited data

Results flagged for a closer look

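The hemisphere difference 24 h after tMCAO was not that of sham surgery for 741 genes that were more positive and 200 that were more negative, by a test of the difference itself (limma). The 5 most positive by the rule were Lif (5.27 ± 1.47, adjusted p = 0.033), Arg1 (5.17 ± 0.99, adjusted p = 0.0037), Il1b (4.70 ± 1.32, adjusted p = 0.034), Tnc (4.54 ± 0.66, adjusted p = 0.0005) and Il11 (4.41 ± 0.84, adjusted p = 0.0034), as log2 differences of differences with SE. Their sham values were low in both hemispheres. Arg1 was at 0, 0 and 2 ipsilaterally and at 1, 0 and 1 contralaterally after sham, and Tnc was at 15, 18 and 37 and at 8, 9 and 19.

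Among the most negative were Negr1 (-2.03 ± 0.40, adjusted p = 0.0042) and Ddn (-2.00 ± 0.47, adjusted p = 0.013). Negr1, a cell adhesion molecule of neurons, was at 146, 157 and 108 ipsilaterally and 89, 99 and 140 contralaterally after sham. In 12 fits that each left out 1 library, the call of Lif was lost in 7 and that of Il1b in 6, with adjusted p of up to 0.11 for both, and those of Arg1, Tnc, Il11, Negr1 and Ddn in none.

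The hemisphere difference at 24 h was not that of 7 days for 1099 genes that were more positive at 24 h and 311 that were more negative, again by a test of the difference itself. The most positive were Lif (5.60 ± 1.47, adjusted p = 0.021), Il6 (5.47 ± 1.55, adjusted p = 0.03), Tnc (5.22 ± 0.66, adjusted p = 0.00033), Il11 (5.13 ± 0.84, adjusted p = 0.0014) and Trem1 (4.06 ± 1.23, adjusted p = 0.04). At 7 days Tnc was at 29, 23 and 28 ipsilaterally and 34, 18 and 19 contralaterally, and Il11 at 16, 10 and 10 and at 11, 6 and 9. Trem1 was still at 62, 47 and 9 ipsilaterally against 10, 6 and 6.

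The most negative was Aplnr, the receptor of apelin, with a difference of -2.46 ± 0.75 (adjusted p = 0.042). It was at 70, 230 and 120 ipsilaterally and 116, 111 and 121 contralaterally at 24 h, with overlap, and at 246, 389 and 207 against 33, 72 and 38 at 7 days, with none. The pseudogene Ccl19-ps1 gave -1.95 ± 0.50 (adjusted p = 0.02), and the assignment of its reads is uncertain beside related genes. Ccl19-ps1 was at 35, 31 and 52 against 66, 83 and 105 at 24 h and at 90, 82 and 44 against 31, 45 and 38 at 7 days. Kcp, a regulator of BMP signalling, gave -1.85 ± 0.33 (adjusted p = 0.0023) and was at 423, 474 and 517 against 147, 305 and 166 at 7 days. Cd180, a receptor of B cells and myeloid cells, gave -1.73 ± 0.43 (adjusted p = 0.016) and was at 86, 99 and 76 against 14, 14 and 14. Notumos gave -1.67 ± 0.48 (adjusted p = 0.033), with 83, 70 and 89 against 41, 94 and 104.

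In 12 fits that each left out 1 library, the calls against 7 days were lost in 9 for Aplnr, 8 for Trem1, 7 for Il6 and Notumos, 3 for Lif and Ccl19-ps1 and 2 for Cd180, with adjusted p of up to 0.12. Those of Tnc, Il11 and Kcp were lost in none.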

How the results depend on the processing

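Counts of called genes depended on the processing as follows. After median centring 1239 genes were lower ipsilaterally at 24 h, and 585 were called more negative at 24 h than at 7 days. Without the fold limit 2305 genes were higher and 1599 lower, since smaller differences then count. In fits of the compared groups alone, 530 genes were more negative after tMCAO than after sham, and against 7 days 313 were more positive and 107 more negative. With the replicate block, 1224 genes were more positive and 645 more negative after tMCAO than after sham, 797 were more negative at 24 h than at 7 days, and 1 sham gene was higher ipsilaterally. The block gave 1613 higher and 1113 lower genes in the comparison of the hemispheres after tMCAO, and of the named genes it changed the call of Plaur, Lcn2 and Mt2 and of no other. Correction for transcript length and GC content took away the calls of Ocln, Adgrf5, Lifr, Reck, Robo1, Slc16a1 and Atp13a5, which had fallen. Also lost were those of Trp53inp1, Mylip, Cdkn1b, Col4a5, Ifit2, Gbp7 and Cd59a, which had fallen too. Of genes that had risen, Fosl1, Cavin3, Ifitm1 and Lck lost their calls.

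Leaving out libraries or whole replicate numbers gave 964 to 1511 higher and 390 to 1052 lower genes, 130 to 857 more positive and 8 to 272 more negative genes against sham, and 289 to 1381 and 26 to 434 against 7 days. For sham hemispheres these fits gave 0 to 1 higher and 0 lower genes. The lowest counts came without replicate 1, or for 8 without replicate 2, where both hemispheres lost a library. Over the named genes, 2303 values kept their side of the threshold, 337 lost it, 5 gained it and none changed sign, and of the counts of list members 1484 stayed within 1.5 times and 340 did not. Why the counts moved was not tested, other than where the alternative itself removes libraries or a threshold. With 3 libraries per group, genes near 0 and differences near the fold limit were least certain.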
